A study of Triticum aestivum with 6 samples.

Results

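The short arms of the homoeologous chromosomes 6A, 6B and 6D of bread wheat were followed through RNA sequencing of filling grain. Members were all rows of the count table whose identifier carries the arm name 6AS, 6BS or 6DS. They numbered 4876 of 102602 identifiers, or 4.75%, with 1838 on 6AS, 1584 on 6BS and 1454 on 6DS. Membership followed the arm name alone. RNA came from inferior grains, the later-set and usually lighter grains of a spike, of field-grown Triticum aestivum cultivar Xinong 538. Titles name 2 groups, CK and SPD, with 3 libraries in each. Every sample of both groups carries the same treatment entry, exogenous spermidine, and the same stage entry, which names 8 and 16 days post anthesis. Neither abbreviation is spelled out in the labels, so SPD and CK are used here as names only, and stage could not be separated. Libraries held 10561224 to 13088727 counts.

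Each wheat chromosome 6 short arm is known for a Gli-2 locus, named Gli-A2, Gli-B2 and Gli-D2 in the subgenomes A, B and D. These loci hold clusters of closely similar genes for alpha-gliadins. Alpha-gliadins are monomeric prolamins that are made in the starchy endosperm during filling, stored in protein bodies, and contribute to the extensibility of dough and to the peptides that act in coeliac disease. Homoeologous arms descend from the same ancestral arm and are known to carry largely corresponding genes. Identifiers of the table give an arm and a code, without position or gene name. The reference table at hand listed 0 identifiers of this form, and 8 symbols looked for (GLI-A2, GLI-B2, GLI-D2, GW2, NAM-A1, NAM-B1, NAM-B2 and NAM-D1) gave 0 matches. No identifier is therefore given a name, a sequence or a role below, and whether any of them is an alpha-gliadin gene was not determined. Reads of near-identical copies may be shared out among identifiers and arms, so values of single copies are uncertain. With no strand setting known, reads from antisense or overlapping genes could not be told apart either.

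The tissue label was met by 7 endosperm genes with a symbol (WAXY, AGP-L, AGP-S, PINA, PINB, GLU-D1-2B and AVNLA), all with counts in every library and summing to 14003 to 18046 CPM (CPM is the count scaled by the library total). The 6 photosynthesis genes PORA, PSBO, PSBP, PSBR, PETC and WHAB1.6, expressed in the green pericarp around the endosperm, also had counts in every library and summed to 429 to 877 CPM. The lowest single value was 2.53 CPM in the endosperm list and 0.64 CPM in the photosynthesis list, so the sums do not describe each gene. SPD replicate 3 stood apart, with the highest sum of both lists and 19.7% of its counts in the 100 most abundant identifiers, against 16.0% to 17.0% in the other 5 libraries. Whether SPD replicate 3 holds the same material as the other SPD libraries was not tested, so most results that rest on it are also given without it. In bulk grain, fewer cells of a type and less RNA per cell cannot be told apart.

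The arms ranked 6AS, 6DS and 6BS by share of counts in every library. Arm 6AS held 1.71%, 1.73% and 1.65% of the counts in CK replicates 1 to 3 against 1.68%, 1.72% and 1.64% in SPD replicates 1 to 3. Arm 6DS held 1.48%, 1.49% and 1.47% in CK against 1.5%, 1.5% and 1.42% in SPD. Arm 6BS held 1.06%, 1.04% and 1.07% in CK against 1.10%, 1.08% and 0.992% in SPD. No value of an arm reached the range of the next arm, and all 3 arms had their lowest share in SPD replicate 3. Counting error was small beside these gaps, with 95% Wilson intervals no wider than 0.00769 percentage points to either side, which cover counting error only. Arm 6AS exceeded 6BS by 0.631 percentage points and 6DS by 0.21, and the difference of 6BS minus 6DS was -0.421, each in the same direction in 6 of 6 libraries. In the two-sided exact paired permutation test within libraries, each difference had p = 0.0312, the smallest that 6 pairs can give, and an adjusted p of 0.0352 over the 9 comparisons of arms. These p-values state only that all 6 libraries had the same direction. Each arm is a fixed set of identifiers, and a steady order gives this p whatever the gap or its spread. The 6 libraries may be technical replicates, since the labels do not say that they came from separate plots or plants. Without the top identifier of both arms compared, 6AS exceeded 6DS by 0.103 percentage points.

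Per identifier the order of the arms was 6DS, 6AS and 6BS. The mean level was 10.2 CPM per identifier on 6DS, 9.18 on 6AS and 6.67 on 6BS. Leaving out the 10 most abundant identifiers of each arm gave 7.39, 6.55 and 5.47 CPM, so 6BS stayed lowest. Among the 41 arm names of the table, 6DS ranked 17, 6AS 23 and 6BS 39 by level per identifier. Median levels of the identifiers with a mean of at least 1 CPM lay closer together, at 7.02 CPM on 6AS, 6.45 on 6DS and 6.20 on 6BS.

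A smaller share of the identifiers of 6BS than of the other arms was detected. In number, 674 to 705 identifiers of 6BS and 666 to 688 of 6DS reached 1 CPM. Arm 6BS had the larger number of these 2 arms in CK replicates 1 and 3 and SPD replicates 1 and 2. At 1 CPM or more, 43.8%, 42.6% and 43.2% of 6BS identifiers were present in CK replicates 1 to 3 against 42.6%, 44.5% and 43.2% in SPD replicates 1 to 3. On 6AS the values were 45.8%, 45.4% and 45.4% in CK against 45.5%, 45.5% and 46.1% in SPD. On 6DS they were 45.8%, 46.8% and 45.8% in CK against 46.2%, 47.0% and 47.3% in SPD. In share, arm 6BS was below both others in all 6 libraries, by 2.3 percentage points against 6AS. The 6BS minus 6DS difference was -3.18 (adjusted p = 0.0352 for both, exact paired permutation test). The gap between 6AS and 6DS was narrower, at -0.881 percentage points for 6AS minus 6DS and as little as -0.0484 in a single library. It had an adjusted p of 0.0352 as well, but 0.0625 at 0.5 CPM, and it turned to 0.401 at 5 CPM and to 0.828 when only identifiers with a count were used.

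Many identifiers had no count in any library, 579 (31.5%) on 6AS, 509 (32.1%) on 6BS and 426 (29.3%) on 6DS, beside 28.9% over all identifiers. In a single library a count of 0 allows a level of up to 0.229 to 0.284 CPM, depending on the library, by the limit of 3 counts. For the mean of all libraries the limit is lower and was not computed. Means from 10 to 100 CPM were reached by 320, 247 and 242 identifiers of 6AS, 6BS and 6DS. Means of at least 100 CPM were reached by 17 on 6AS, 9 on 6BS and 24 on 6DS. The smallest arm by identifiers, 6DS, thus had the most identifiers in this upper class.

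**Figure D1:**
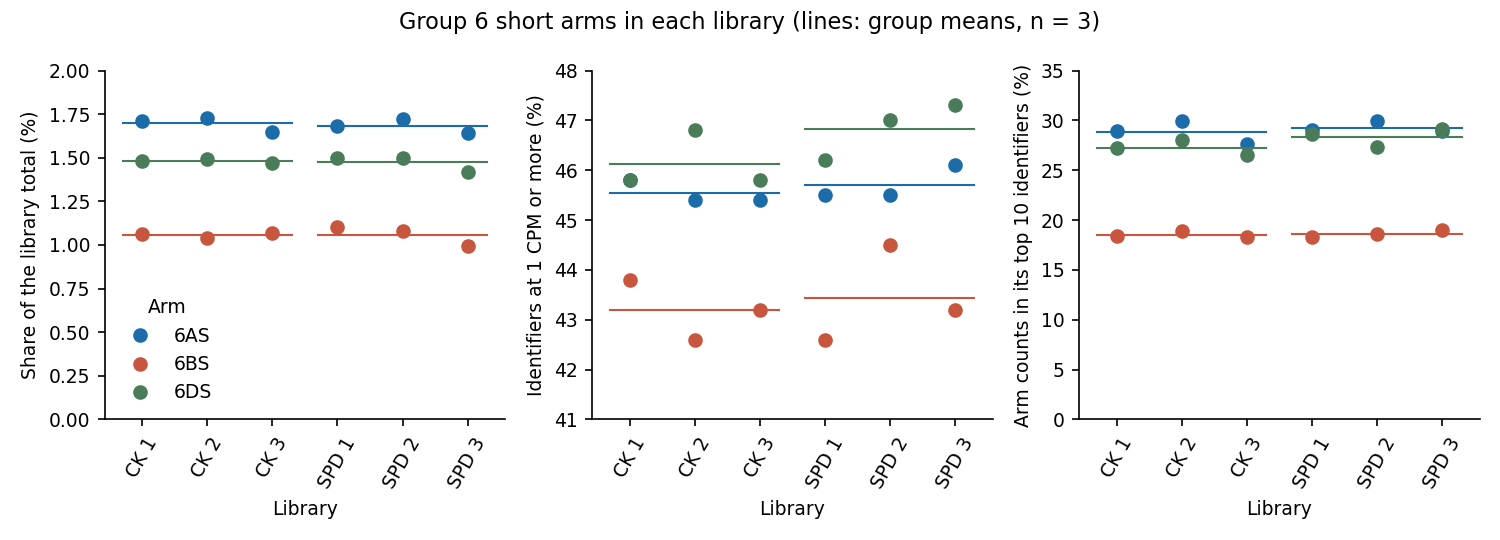
Share of the library total, share of identifiers at 1 CPM or more and share of arm counts in the top 10 identifiers, all in percent, for the 6 libraries. Points are libraries and lines are means of 3 libraries. The middle axis starts at 41%. Arm 6BS is lowest in each panel, at 0.992% to 1.10% of the counts.

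Counts of 6AS and 6DS were more concentrated than those of 6BS. The 10 most abundant identifiers held 29.0% ± 0.853 of the counts of 6AS, 27.8% ± 0.958 of those of 6DS and 18.6% ± 0.283 of those of 6BS (mean ± SD over 6 libraries). By this share 6AS ranked 7, 6DS 10 and 6BS 27 among the 41 arms. Those names cover 1053 (5AS) to 9438 (3B) identifiers, and a fixed 10 is a larger part of a small arm. The ranks may therefore partly reflect arm size. The difference of 6AS from 6BS was 10.4 percentage points and that of 6BS from 6DS was -9.17, each in 6 of 6 libraries with an adjusted p of 0.0352 (exact paired permutation test).

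The comparison of 6AS with 6DS hinged on how many identifiers were counted. With the top 10, 6AS was higher by 1.27 percentage points in 5 of 6 libraries (adjusted p = 0.0625, exact paired permutation test), with SPD replicate 3 the exception. With the top 5 the difference was 4.90, and with the top 20 it was -3.93, both with an adjusted p of 0.0312. A single identifier held 10.2% of the 6AS counts, against 4.41% for the leader of 6DS and 3.64% for that of 6BS. Reaching 50% of the summed level took 38 identifiers on 6DS, 57 on 6AS and 69 on 6BS.

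**Figure D2:**
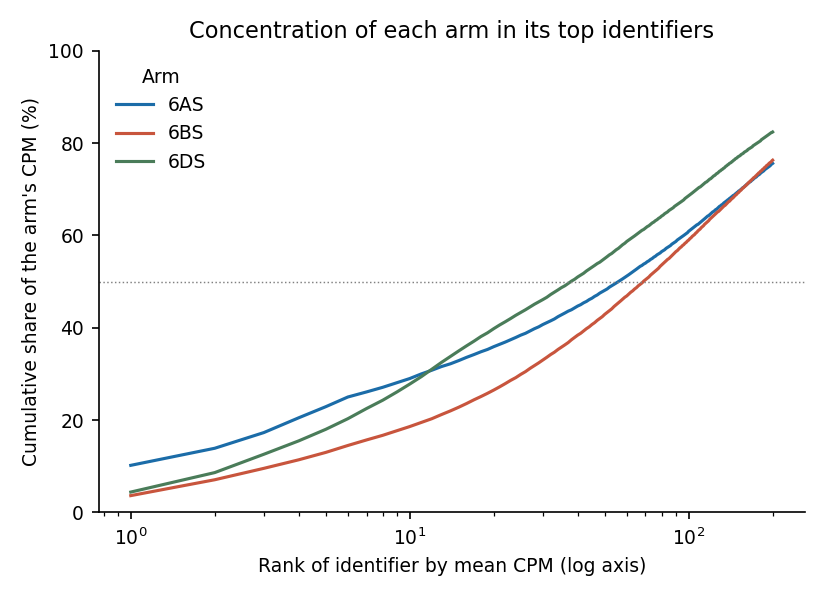
Cumulative share of the summed CPM of each arm (percent, vertical axis) against the rank of its identifiers by mean CPM (log axis). The dotted line marks 50%, which 6DS reaches at 38 identifiers, 6AS at 57 and 6BS at 69, and the 6AS and 6DS curves cross between ranks 11 and 12.

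The split of counts among the 3 subgenomes differed from that of the 2 groups of arms set beside it. Of the counts on the group 6 short arms, 40% ± 0.533 lay on A, 25% ± 0.502 on B and 35% ± 0.108 on D (mean ± SD, n = 6 libraries). The identifiers were split 37.7%, 32.5% and 29.8%, so the D arm held more counts and the B arm fewer than their shares of identifiers. On the group 6 long arms the counts were split 31.9%, 27.9% and 40.2%, and on the group 5 short arms 32.7%, 37.3% and 30%. Identifiers were split 32.4%, 31.8% and 35.7% on the long arms and 30.7%, 34.7% and 34.6% on the group 5 short arms. On the long arms, too, the B arm held fewer counts and the D arm more than their shares of identifiers. On the group 5 short arms the B arm held more and the D arm fewer. The differences in count share below were not adjusted for these splits, so they also hold differences in the number of identifiers, which may make up much of them. The B share of the group 6 short arms was lower than that of the long arms in every library, with differences of -3.09 to -2.74 percentage points (mean -2.87). Against the group 5 short arms the differences were -14.2 to -10.4 points (mean -12.3). The A share was higher than on the long arms by 8.06 points and than on the group 5 short arms by 7.29. The D share differed from the same 2 groups by -5.18 and 5.0 points. The D arm held 29.8% of the identifiers of the short arms and 35.7% of those of the long arms, so the -5.18 does not show a lower level per identifier. All had p = 0.0312 in the two-sided exact paired permutation test, adjusted over 6 comparisons to 0.0312.

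The most abundant member of the 3 arms was Traes_6AS_EE8C37602. Levels of single identifiers below are CPM scaled by TMM (trimmed mean of M values). It had 1780, 1898 and 1498 CPM in CK (replicates 1 to 3) against 1489, 1864 and 1892 CPM in SPD (replicates 1 to 3). CK replicate 3 and SPD replicate 1 were the low libraries, and the groups overlapped. Its mean of 1737 CPM stood well above the next highest of the 3 arms, Traes_6DS_CDB16CE3F with 655 CPM. The log2 fold change, SPD against CK, was 0.02 (95% interval -0.25 to 0.29).

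The next 4 of 6AS, from 384 to 684 CPM, also overlapped between groups. Traes_6AS_F67BFB2A5 had 650, 679 and 581 CPM in CK against 684, 678 and 515 in SPD. Its lowest value belonged to SPD replicate 3. Traes_6AS_F9E75ED21 had 514, 540 and 562 CPM in CK against 628, 604 and 537 in SPD. In that identifier SPD replicates 1 and 2 lay above all CK values and SPD replicate 3 within their range. Traes_6AS_82E93D872 lay between 474 and 602 CPM and Traes_6AS_CF6D8CD28 between 384 and 439 CPM over all 6 libraries.

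The leading identifiers of 6BS lay lower. Traes_6BS_7508E51F3 had 357, 384 and 391 CPM in CK against 429, 406 and 358 in SPD. Traes_6BS_804DA0429 had 342, 363 and 374 CPM in CK against 345, 402 and 364 in SPD. Both had overlapping groups, with log2 fold changes of 0.08 (SE 0.11) and 0.04 (SE 0.10). Traes_6BS_404C2652F lay between 229 and 298 CPM, Traes_6BS_8CB3E58AE between 145 and 223 and Traes_6BS_8DA635027 between 157 and 197 CPM. In Traes_6BS_8CB3E58AE the low library was CK replicate 3, without which its log2 fold change went from 0.20 to 0.06.

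On 6DS the 3 leading identifiers were close to each other. Traes_6DS_CDB16CE3F had 609, 658 and 672 CPM in CK against 734, 692 and 568 in SPD. Traes_6DS_A593093E1 had 584, 635 and 690 CPM in CK against 627, 647 and 580 in SPD. Traes_6DS_18C6E11D3 had 623, 610 and 517 CPM in CK against 537, 643 and 633 in SPD. Their order changed with the library, and the groups overlapped in each. Traes_6DS_972C7F490 ran from 314 CPM in SPD replicate 1 to 444 CPM in SPD replicate 3.

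Traes_6DS_A52DF7FE4 varied most among the abundant identifiers of its arm. It had 320, 405 and 378 CPM in CK (replicates 1 to 3) against 503, 355 and 647 in SPD (replicates 1 to 3). SPD replicates 1 and 3 lay above all CK values and SPD replicate 2 within their range. The summed photosynthesis genes were 449, 552 and 429 CPM in CK against 624, 438 and 877 CPM in SPD, and were likewise highest in SPD replicates 3 and 1. All 6 of those genes had counts in every library, and their part in this result was not tested. The log2 fold change of Traes_6DS_A52DF7FE4 was 0.45 (SE 0.19, 95% interval 0.03 to 0.86) with an adjusted p of 0.997 in the quasi-likelihood test of edgeR, and 0.22 without SPD replicate 3.

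**Figure D3:**
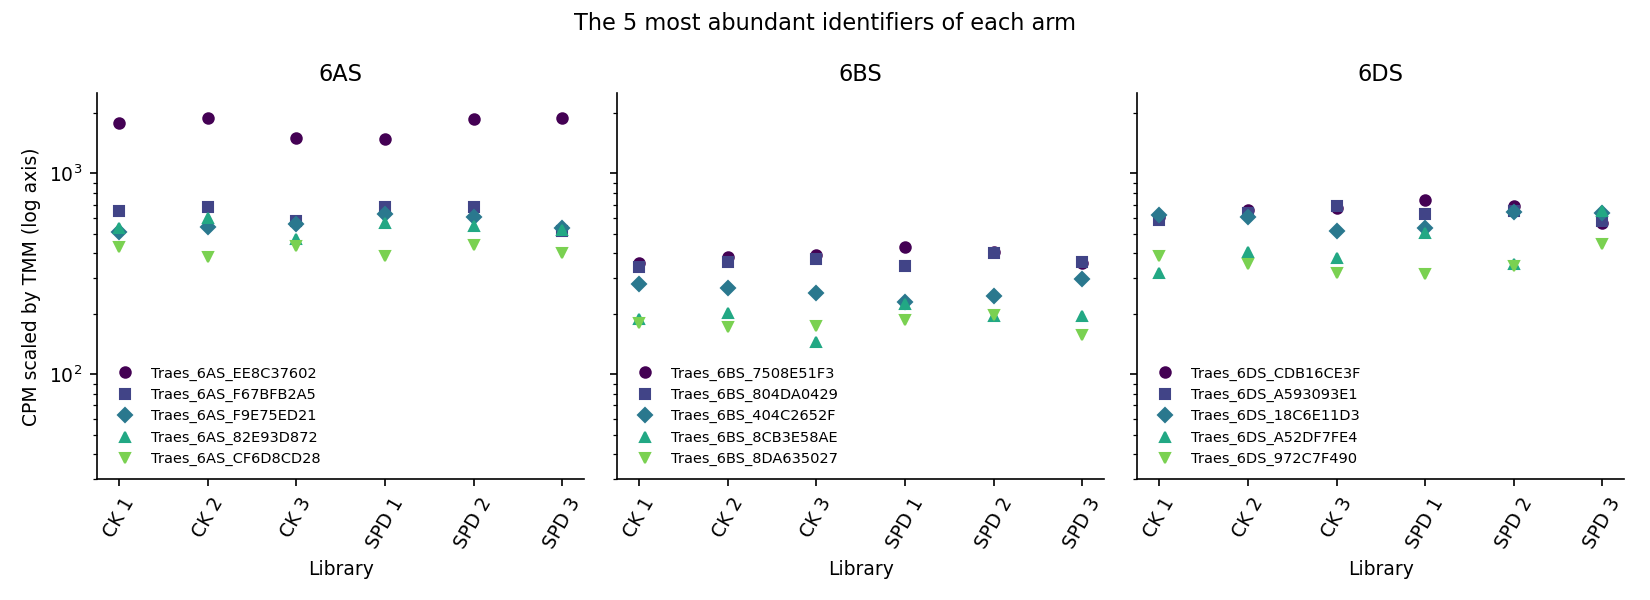
CPM scaled by TMM (log axis) of the 5 most abundant identifiers of each arm in the 6 libraries, 1 point per library. Traes_6AS_EE8C37602 lies alone at 1489 CPM or more, and the leaders of 6BS stay at or below 429 CPM.

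No member passed the test of SPD against CK after adjustment. A filter on low counts left 2361 of the 4876 members to test, 889 on 6AS, 748 on 6BS and 724 on 6DS. The quasi-likelihood test of edgeR called 0 of them at an adjusted p of 0.05, as it called 0 (0%) of all 50136 identifiers, and the smallest adjusted p was 0.997. The Wald test of DESeq2 called 0 members and 3 other identifiers (0.00598%). In that test 28 members of 6AS (3.15%), 28 of 6BS (3.74%) and 14 of 6DS (1.93%) lay below an unadjusted 0.05, beside 3.09% of all identifiers. In edgeR 32 members of 6AS (3.6%), 31 of 6BS (4.14%) and 24 of 6DS (3.31%) lay below an unadjusted 0.05, beside 3.59% of all identifiers tested. By direction, 45 of the 2361 tested members were higher in SPD in edgeR, against a background of 1.9%, and 42 lower, against 1.69%. Median log2 fold changes were -0.026 on 6AS, 0.012 on 6BS and -0.0045 on 6DS, beside 0.0048 over all identifiers. The median 95% interval of a member reached 0.65 on the log2 scale to either side, without adjustment for the number of tests. This width depends on level, with a median of 0.275 for the 50 members averaging at least 100 CPM. It is not the detection limit of the adjusted test. Changes larger than 0.65 were not called either, such as -1.2 and 1.92 in members named below.

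These unadjusted counts moved with the library left out. Without SPD replicate 2 they were 89 on 6AS (9.77%), 53 on 6BS (6.93%) and 52 on 6DS (7.04%), with 7.76% over all identifiers. Without CK replicate 1 they were 11 on 6BS (1.44%) and 12 on 6DS (1.61%), with 2.08% over all identifiers. Without CK replicate 3 the count was 18 on 6BS (2.35%, all identifiers 3.34%). Without CK replicate 2 it was 14 on 6DS (1.88%, all identifiers 2.56%), and without SPD replicate 3 it was 38 on 6DS (5.08%, all identifiers 4.84%). In these fits the shares on the arms moved in the same direction as the share over the whole table. An exception was the fit without SPD replicate 1, where 6AS rose to 4.24% while all identifiers fell to 3.44%. Members called stayed at 0 in each of these fits.

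Values of SPD and CK stood fully apart in 83 members of 6AS (9.34%), 72 of 6BS (9.63%) and 73 of 6DS (10.1%), beside 9.48% of all identifiers tested. SPD lay above CK in 35, 43 and 31 of them and below in 48, 29 and 42, where the background was 4.73% above and 4.76% below. Both shares of the members, 4.62% above and 5.04% below, were near the background.

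Among the 50 members with a mean of at least 100 CPM, log2 fold changes ran from -0.37 to 0.56, with 28 positive and 22 negative, beside 544 and 773 of all 1317 identifiers at that level. In 4 of the 50 the groups did not overlap (8.0%), beside 8.50% of those 1317. Traes_6DS_2F77E1434, at the lower end, had 303, 279 and 261 CPM in CK against 245, 256 and 153 in SPD. Every SPD value lay below every CK value, and its log2 fold change of -0.37 (SE 0.175) went to -0.17 without SPD replicate 3. Traes_6AS_9E38A95CB was another of the 4, with 177, 165 and 165 CPM in CK against 159, 157 and 158 in SPD, and a log2 fold change of -0.10 (SE 0.10). Traes_6AS_CD1841D05 lay at -0.225 (SE 0.13), and at -0.11 without CK replicate 2. Traes_6DS_2002521C8 lay at 0.12 (SE 0.11). The 4 were singled out after their values were seen, and each had an adjusted p of 0.997 in edgeR.

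The members with the lowest unadjusted p-values were all of low level. Traes_6AS_8A5D4964E had 7.33, 7.79 and 8.18 CPM in CK against 2.51, 4.26 and 3.32 in SPD, from 86 to 106 counts in CK and 31 to 55 in SPD. Its groups did not overlap, with a log2 fold change of -1.20 (SE 0.28, unadjusted p = 0.00113 and adjusted p = 0.997 in edgeR). Leaving out 1 library at a time kept it between -1.42 and -1.03. Traes_6DS_0360386B4 had 3.19, 4.17 and 2.93 CPM in CK against 1.13, 1.55 and 0.782 in SPD, at -1.55 (SE 0.42).

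On the higher side, Traes_6AS_32F340D1C had 1.51, 1.09 and 0.54 CPM in CK against 6.48, 2.17 and 3.32 in SPD. Its log2 fold change was 1.92 (SE 0.53), or 1.38 without SPD replicate 1, its highest library. Traes_6AS_D067A9858 had 1.59, 1.54 and 2.08 CPM in CK against 6.08, 2.25 and 5.67 in SPD, at 1.41 (SE 0.43). SPD replicate 2 of the latter lay just above the highest CK value. The adjusted p of each of these 3 was 0.997 in edgeR, so none was called.

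**Figure D4:**
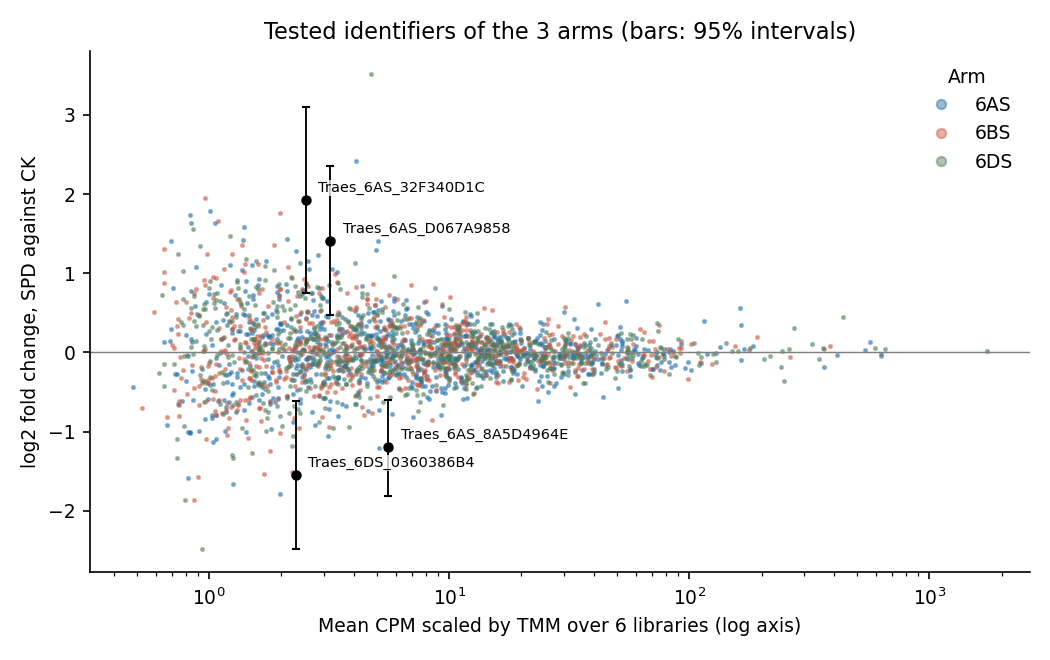
Log2 fold change, SPD against CK, against mean CPM scaled by TMM (log axis) for the 2361 tested members, 1 point each. Black points with 95% intervals mark the 2 members with the lowest unadjusted p in each direction, and the scatter narrows as the level rises.

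With all 6 libraries, none of the 9 arm comparisons of SPD with CK passed the test. The share of counts was 1.70% ± 0.0418 in CK and 1.68% ± 0.0404 in SPD on 6AS, 1.06% ± 0.0149 and 1.06% ± 0.0565 on 6BS, and 1.48% ± 0.0096 and 1.48% ± 0.0447 on 6DS (mean ± SD, n = 3). Two-sided exact permutation tests gave p = 0.6, 1 and 1. The share of identifiers at 1 CPM was higher in SPD by 0.734 percentage points on 6DS, and the share held by the top 10 of 6DS by 1.08 points, each with p = 0.2 in the same exact test. With 3 libraries against 3 the smallest p is 0.1, and all 9 comparisons had an adjusted p of 0.9 or 1. Signs of the 6BS and 6DS shares of counts changed without SPD replicate 3, to differences of 0.0315 and 0.0224 percentage points. In the remaining 5 libraries both SPD shares lay above all 3 CK shares on each of these arms, with p = 0.1 in the exact permutation test, the smallest it gave for 3 libraries against 2.

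Spread between libraries was wider in SPD than in CK on all 3 arms. Among members averaging 10 CPM or more, the median coefficient of variation was 10.1% in CK and 15.6% in SPD on 6AS (337 members), 11.7% and 16.5% on 6BS (256) and 9.93% and 14.3% on 6DS (266). Over all 18471 identifiers of that level it was 10.6% and 14.6%. The SPD value was the larger in 69.4% of these members on 6AS, 65.2% on 6BS and 64.7% on 6DS, beside 65.3% of all identifiers. Over all 6 libraries the medians were 14.1%, 15.1% and 13.4%, and without SPD replicate 3 they were 12.4%, 13.1% and 11.6%. These last values pool both groups, and the contrast of SPD with CK in spread was not computed without SPD replicate 3.

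SPD replicate 3 was the lowest library in 248 of the tested members of 6AS (27.9%), 196 of 6BS (26.2%) and 165 of 6DS (22.8%), beside 23.2% of all identifiers. It was the highest in 22.6%, 17.1% and 20.7%, beside 23.2%. The median deviation of SPD replicate 3 from the mean of the 6 libraries, on the log2(CPM + 0.5) scale, was -0.024 on 6AS, -0.021 on 6BS and -0.0028 on 6DS, and 0.011 over all identifiers. It was the lowest library more often than the highest on each of the 3 arms.

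The most variable identifier with a mean of at least 50 CPM on 6AS was Traes_6AS_236AF32FD, with 128, 117 and 150 CPM in CK against 119, 147 and 317 in SPD. Without SPD replicate 3 its log2 fold change went from 0.56 to 0.01. On 6BS it was Traes_6BS_19C784B36, with 51.3, 40.0 and 66.1 CPM in CK against 44.5, 64.3 and 37.6 in SPD, whose high and low libraries were spread over both groups. On 6DS it was Traes_6DS_A52DF7FE4, described above.

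Some members were almost missing from SPD replicate 3 and present in the other 5 libraries. The rule asked for at least 5 CPM in each of 5 libraries and at most 10% of the lowest of these in the remaining library, with CPM on library size alone. It found 4 members of 6AS, 3 of 6BS and 0 of 6DS, all for SPD replicate 3, where the background was 97 of 72925 identifiers with a count (0.133%). No identifier of the table met it for another library. Traes_6AS_2E6F75FB3 had 172, 124 and 134 counts in CK, 101 and 153 in SPD replicates 1 and 2, and 0 in SPD replicate 3, which allows up to 0.284 CPM. Traes_6BS_83AD75F50 had 105, 153 and 112 counts in CK, 149 and 127 in SPD replicates 1 and 2, and 0 in SPD replicate 3. Traes_6AS_E2A8B7A3E had 303 to 412 counts in the others and 4 in SPD replicate 3, and Traes_6BS_B0EF3618D had 265 to 385 and 9.

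The same rule turned around gave members nearly exclusive to SPD replicate 3, 1 on 6AS, 2 on 6BS and 1 on 6DS, where the background was 65 identifiers (0.0891%). CK replicates 1 and 3 had 1 such identifier each (0.00137%), neither of them a member. Traes_6DS_C1B74A6EC had 257 counts in SPD replicate 3, 26 in CK replicate 3, 13 in SPD replicate 2, 2 in CK replicate 1 and 0 in the remaining libraries. Traes_6AS_083DAD616 had 140 counts in SPD replicate 3, 12 in CK replicate 3 and 0 elsewhere. Traes_6BS_5873489FD had 126 counts there and 2 to 11 elsewhere, and Traes_6BS_B2D0168C0 had 67 there, 6 in CK replicate 3 and 0 in the other 4. In all 4 the highest of the other 5 libraries was CK replicate 3.

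**Figure D5:**
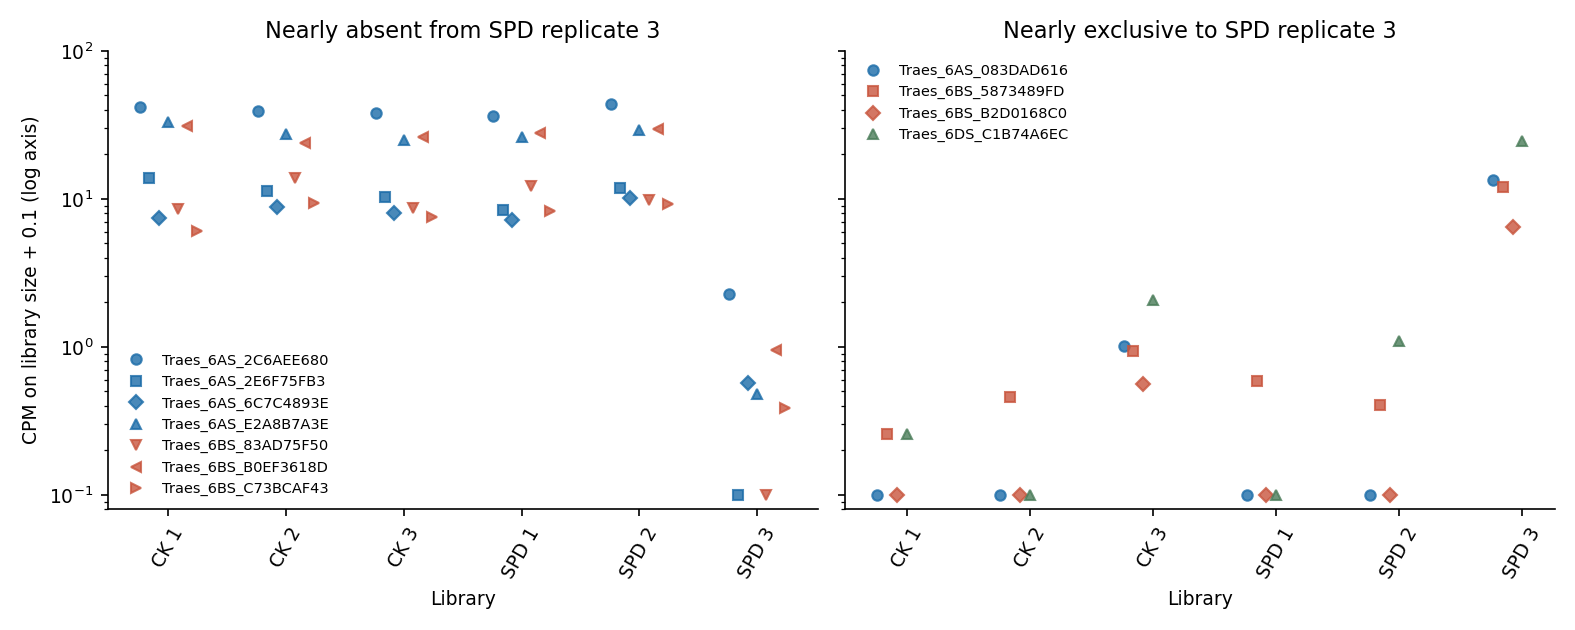
CPM on library size plus 0.1 (log axis) in the 6 libraries for the 7 members nearly absent from SPD replicate 3 (left) and the 4 nearly exclusive to it (right), 1 point per library. The right panel also shows CK replicate 3 above the other 4 libraries.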

How the data were processed

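The authors deposited raw counts per gene identifier for 6 libraries, as whole numbers with totals that differ. HISAT2 is named in the submitters' processing notes. The sources used here do not give the counter, build, annotation or strand setting. Sample titles gave each group and replicate number. Members, lists and rules were chosen with earlier results of these data known.

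All counts entered edgeR 4.0.16 under R 4.3.3. The steps were filterByExpr (min.count 10, min.total.count 15), TMM scaling and the two-sided quasi-likelihood test without covariates, with Benjamini and Hochberg adjustment over 50136 identifiers and a threshold of 0.05. DESeq2 1.42.0 was an alternative. Both were run on the deposited counts, and the edgeR test was tested on simulated data. Shares, detection and concentration used library totals and exact permutation tests (Python 3.11.15). Named identifiers are the 5 most abundant per arm, the 2 of lowest unadjusted p per direction, the most variable per arm at 50 CPM or more, and those at 0 in a single library. Others were named after their values were seen. The rule on nearly absent and nearly exclusive identifiers and the comparison with other arms were added after seeing the data. Alternatives were other scalings, filters, detection levels and numbers of top identifiers, a replicate block and each library left out.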

Additional observations from a re-analysis of the deposited data

How the results depend on the processing

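Differences between arms kept their direction in all leave-one-out settings, with 5 pairs giving no p below 0.0625. With each library left out in turn, the share of counts ran from 0.619 to 0.641 for 6AS minus 6BS, 0.203 to 0.215 for 6AS minus 6DS and -0.425 to -0.416 for 6BS minus 6DS. Detection at 1 CPM ran from 2.18 to 2.56, -1.05 to -0.757 and -3.42 to -2.99 for the same pairs, and the top 10 share from 10.3 to 10.7, 0.995 to 1.55 and -9.37 to -8.96 percentage points. For 6AS minus 6DS, detection was -0.903 at 0.5 CPM (adjusted p = 0.0625, exact paired permutation test), 0.401 at 5 CPM and 0.828 among identifiers with a count. The B arm differences ran from -2.9 to -2.83 against the group 6 long arms and -12.7 to -11.9 against the group 5 short arms. Without the top identifier of both arms compared, the share of counts differed by 0.498 for 6AS minus 6BS, 0.103 for 6AS minus 6DS and -0.395 for 6BS minus 6DS. The concentration of 6AS minus 6DS was 4.90 with the top 5, -3.93 with the top 20 and -0.29 with the top 1% of identifiers. The cause was not tested.

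Most differences between SPD and CK in the arm measures changed sign under some setting, except the top 10 share of 6DS, which was higher in SPD throughout (0.689 to 1.6 with a library left out, lowest without SPD replicate 3). Without the 100 most abundant identifiers the share of counts differed by 0.00177 on 6AS, 0.0137 on 6BS and 0.0134 on 6DS, and with TMM totals by 0.00554 on 6BS and 0.00597 on 6DS. Detection differed by -0.109 at 0.5 CPM and -0.0544 at 5 CPM on 6AS and by -0.16 at 0.5 CPM on 6DS. With each library left out, the share of counts ran from -0.0394 to 0.0045 on 6AS, -0.0209 to 0.0315 on 6BS and -0.0165 to 0.0224 on 6DS. Detection ran from -0.00907 to 0.299 on 6AS -0.337 to 0.642 on 6BS and 0.504 to 1.05 on 6DS, and the top 10 share from -0.164 to 1.0 on 6AS and -0.0575 to 0.275 on 6BS. The median log2 fold change ran from -0.019 to -0.00716 on 6AS, -0.0272 to 0.042 on 6BS and -0.00805 to 0.00957 on 6DS, and was -0.0068 on 6AS without a filter.

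Calls over all identifiers ran from 0 to 1 with a library left out, and DESeq2 called 3, with 0 members called in any setting. Unadjusted counts without a filter were 54 on 6AS (4.29%) and 47 on 6BS (4.37%), beside 3.91% of all identifiers. Same-numbered libraries showed no shared deviation (0.0157, -0.0583 and -0.0288 as correlations), and among the 3 numbers only number 1 correlated best with itself for the CK library. With the replicate block 0 identifiers were called. In that fit 26 members of 6AS (2.92%), 20 of 6BS (2.67%) and 19 of 6DS (2.62%) lay below an unadjusted 0.05, beside 2.88% of all identifiers. Members nearly absent from SPD replicate 3 numbered 10 at 20%, 5 at 5%, 9 at 2 CPM and 3 at 10 CPM elsewhere. Depth limits what low-level members can show: the limit of 3 counts lies at 0.229 to 0.284 CPM.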

Other observations

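CK replicate 3 held the highest value among the other 5 libraries for 50 of the 64 identifiers of the whole table that were nearly exclusive to SPD replicate 3 and had a count elsewhere. CK replicate 1 held it for 4, CK replicate 2 for 2, SPD replicate 1 for 3 and SPD replicate 2 for 5. All 4 such members of the group 6 short arms were among the 50. What the shared identifiers of these libraries come from, sample identity and carry-over included, was not tested.

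Some abundant members of different arms kept a nearly fixed ratio over the libraries. The nearest profile was sought for the 5 most abundant and the most variable member of each arm, among members of the other 2 arms with a mean of at least 50 CPM, after the values had been seen. Traes_6AS_EE8C37602 was nearest to Traes_6DS_18C6E11D3 among 100 candidates, and their ratio stayed between 2.77 and 3.11 in the 6 libraries. Traes_6BS_7508E51F3 was nearest to Traes_6AS_F9E75ED21, which held 1.41 to 1.5 times its level, and it was itself the nearest to Traes_6DS_CDB16CE3F, at 0.582 to 0.631 times that level. Levels of these members hardly varied, over a 1.27-fold range for Traes_6AS_EE8C37602, 1.2-fold for Traes_6BS_7508E51F3 and 1.29-fold for Traes_6DS_CDB16CE3F. A steady ratio between such flat profiles says little. Traes_6DS_A52DF7FE4 spanned a 2.02-fold range over the libraries, and Traes_6AS_A422743F4 followed it at 0.249 to 0.281 times its level, with 85.0, 114 and 99.2 CPM in CK against 133, 96.8 and 161 CPM in SPD. Others had no such partner: the ratio of Traes_6AS_236AF32FD to its nearest profile was not steady, with the latter at 0.242 to 0.493 times its level, and the nearest to Traes_6BS_8CB3E58AE ran from 2.54 to 3.27 times. A nearest profile among about 100 is close by selection, all of them share the same 6 libraries, and the identifiers do not show whether such pairs are homoeologous copies.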
